A study of Rattus norvegicus with 3 samples.

Results

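A set of 10 genes known as markers of astrocytes, or of astrocytes that react to injury, was followed across the 3 arrays. They were Gfap, Vim, S100b, Aqp4, Cd44, Osmr, Steap4, Lcn2, Timp1 and Serpina3n, 10 of the 8899 genes that could be named on the array. They were chosen by name, with earlier results of these data known, so their counts are a description and no independent evidence. Of all probes, 12 of 41012 carry their RefSeq accessions. The arrays measured RNA of the vestibular nuclei, where signals from the balance organs of the inner ear enter the brainstem. One array held nuclei on the operated side of adult male Sprague-Dawley rats (200 to 250 g) 1 day after left labyrinthectomy, which destroys the balance organ. Another held such nuclei 7 days after the operation, and the last held nuclei of sham-operated rats. The protocol text calls the controls normal rats and does not give the side taken from them. Each group had 1 array and tissue of 3 rats, which appears to have been pooled because the nuclei are small.

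Astrocytes are the glial cells that buffer potassium, clear glutamate and wrap blood vessels and synapses. After injury or loss of input they can enlarge and change their RNA, a state called reactive astrogliosis. Its best known sign is more of the intermediate filament proteins GFAP and vimentin. A main route to this state runs through cytokines of the IL-6 family, such as oncostatin M and LIF, which bind receptors that share the subunit gp130 and activate the transcription factor STAT3. In the vestibular nuclei, glial reaction to the loss of the labyrinth is one of the processes studied in vestibular compensation, the recovery of balance after damage on one side.

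At day 7, 6 of the 9 members that could be compared with sham were at least 2-fold higher: Cd44, S100b, Osmr, Steap4, Vim and Aqp4. Of all measured genes 11.1% were. At day 1, 3 of 8 members were, namely S100b, Steap4 and Timp1, beside 8.26% of all measured genes. Gfap, the best known astrocyte gene of the 10, was within 2-fold of sham at both times. S100b was 9.14-fold higher at day 1 and 3.72-fold higher at day 7, and Cd44 was 1.71-fold higher at day 1 and 3.72-fold higher at day 7. Since each group is 1 array, groups could not be tested against each other, and a difference between 2 arrays has no error from animals or dissections. The tissue is a mixture, so fewer cells of a type and less RNA per cell cannot be told apart. Ependymal cells share Vim, S100b and Aqp4 with astrocytes. Of 5 measured markers of ependyma and choroid plexus, 4 were also at least 2-fold higher at day 7. The part of ependyma and choroid plexus in the member values was not tested.

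Levels are log2 of the spot intensity relative to the array's 75th percentile, so 0 is the 75th percentile of all spots that are not controls. A gene counts as measured in a comparison when neither array has its probe saturated or too close to background. The 75th percentile was between 5242 and 5692 intensity units, and between 76.9% and 81.3% of spots were well above background. The lowest signal well above background was 109 units at day 1 and 122 at day 7, against 66.9 in sham. Dim probes thus had a higher limit at both times after surgery. All 3 arrays lay on 1 slide at different positions, so position and group cannot be told apart. The probes of 4 members, S100b, Aqp4, Timp1 and Gfap, lie on 10 spots each, and their spot spread measures error within an array but not between animals. The other members have 1 spot per probe and no such error. Over the 263 probes on 10 spots the median spot SD was between 0.09 and 0.11 (log2).

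**Figure D1:**
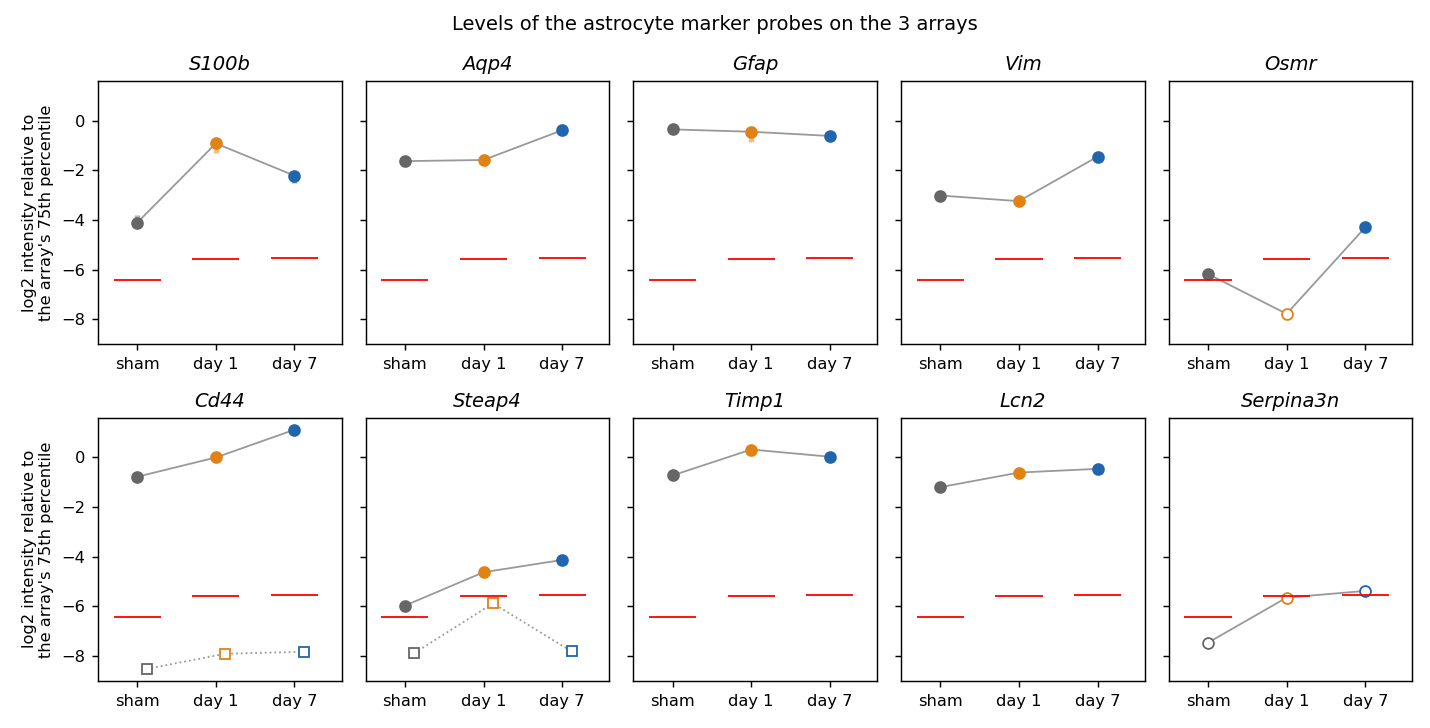
Levels of the 12 member probes on the sham, day 1 and day 7 arrays (log2 intensity relative to the 75th percentile of the array), with 1 panel per gene. Vertical bars are the range over spots of the 4 probes on 10 spots, open symbols were not well above background, squares are second probes of a gene, and red lines are each array's lowest signal well above background. S100b is highest at day 1, Vim, Cd44, Osmr, Steap4 and Aqp4 are highest at day 7, and Gfap is nearly level.

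The set was compared with 25 other genes of astrocyte identity, such as glutamate transporters and gap junction proteins. In mixed tissue this comparison cannot show which cells gave the member values. Probes were found for 22 of the 25 genes, and 20 of these were well above background on each of the 3 arrays. The summed level of the 22 came to 6.30 in sham, 6.32 at day 1 and 6.26 at day 7 (log2 of the sum). Without Gja1 and Nfia, whose probes reached saturation, it came to 5.84 in sham, 5.85 at day 1 and 5.81 at day 7. At day 1, 1 of 19 measured identity genes passed 2-fold upward and none downward, and the median log2 fold was -0.01. At day 7, none of 18 differed by 2-fold, with a median of -0.10. The exception at day 1 was Kcnj10, the potassium channel of astrocytes, with a log2 fold of 1.71. At day 7 Kcnj10 was not well above background, which put it at least 2.11-fold below sham. Glul, the enzyme that turns glutamate into glutamine, had log2 folds of -0.17 at day 1 and -0.85 at day 7 against sham. Aldh1l1, a folate enzyme used as a general astrocyte marker, had 0.21 at day 1 and 0.70 at day 7. Fabp7, a fatty acid binding protein of immature astrocytes and radial glia, had 0.62 and -0.35. Second probes disagreed for 2 genes. Nfia, a glial transcription factor whose main probe was saturated in sham, had -1.17 at day 1 and -0.29 at day 7 on its other probe. Atp1b2, a sodium pump subunit, had 0.02 and 0.11 on its brightest probe and 0.05 and 4.22 on one of 2 others.

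Upstream sequences are shown for 3 members that were at least 2-fold higher at day 7, since they hold the motifs that were searched. The searched windows reach 250 bases before and 50 bases after 1 start site per gene, called the start below. Both strands were searched, in RefSeq's GRCr8 assembly. For Osmr this site lies inside the annotated gene, whose outer end is at chr2:57688802, so most of its printed part is within the gene. The sites of Cd44, S100b, Aqp4, Lcn2 and Timp1 also lie inside their annotated genes. The motifs were TTCNNNGAA, the STAT motif, TGANTCA, the AP-1 motif, and the NF-kB consensus motif. Capitals mark the matches, each sequence is written 5′ to 3′ on the strand of its gene, and the printed parts are the 250 bases before the start, at chr2:57688562-57688811 (minus strand, Osmr), chr4:27054770-27055019 (minus strand, Steap4) and chr17:81577011-81577260 (plus strand, Vim).
Osmr: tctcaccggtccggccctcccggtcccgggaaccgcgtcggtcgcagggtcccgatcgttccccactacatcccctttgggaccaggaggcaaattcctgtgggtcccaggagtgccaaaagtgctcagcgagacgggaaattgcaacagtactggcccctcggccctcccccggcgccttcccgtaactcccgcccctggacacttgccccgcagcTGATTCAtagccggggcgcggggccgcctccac
Steap4: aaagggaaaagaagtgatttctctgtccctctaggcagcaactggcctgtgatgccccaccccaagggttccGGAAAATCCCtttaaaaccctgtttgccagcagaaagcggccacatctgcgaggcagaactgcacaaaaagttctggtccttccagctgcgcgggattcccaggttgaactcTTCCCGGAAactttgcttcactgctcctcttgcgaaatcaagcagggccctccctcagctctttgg
Vim: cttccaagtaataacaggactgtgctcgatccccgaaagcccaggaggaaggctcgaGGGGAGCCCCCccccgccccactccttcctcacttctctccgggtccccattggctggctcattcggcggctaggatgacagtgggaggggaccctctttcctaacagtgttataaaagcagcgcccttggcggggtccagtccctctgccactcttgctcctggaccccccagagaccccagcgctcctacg
The Osmr window holds the letters TGATTCA of the AP-1 motif, which begin 33 bases before the start used here and lie inside the annotated gene. In Steap4 the STAT letters TTCCCGGAA begin 66 bases before the start, and an NF-kB match begins 178 bases before it. Vim has 2 overlapping NF-kB matches that begin 193 and 192 bases before the start. The STAT motif was found in 2 of the 10 member windows, Steap4 and Serpina3n, and in 8.32% of 21851 promoters of protein-coding genes. The AP-1 motif was in 1 of 10 and in 6.53% of promoters, and the NF-kB motif in 2 of 10 and in 5.57%. A match describes letters and not a site in use.

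The filament genes behaved differently from each other. Gfap encodes the main intermediate filament of mature astrocytes. Its 10 spots had a median intensity of 4420 in sham, 3952 at day 1 and 3714 at day 7. As levels, that was -0.35, -0.45 and -0.61 in the same order, with spot SDs of 0.11, 0.17 and 0.10. The spots of Gfap overlapped between all pairs of arrays. Against sham its log2 fold was -0.09 ± 0.06 at day 1 and -0.26 ± 0.05 at day 7 (SE over spots), and between the 2 days after surgery it was -0.17 ± 0.06 (day 7 against day 1). Its fold against sham lay at percentile 40.6 of the folds of measured genes at day 1 and at percentile 27.6 at day 7.

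Vim encodes vimentin, the filament of immature and reactive astrocytes, which fibroblasts, vessel cells and ependymal cells also make. The single Vim spot had an intensity of 705 in sham, 555 at day 1 and 2080 at day 7. Its log2 fold was -0.23 at day 1 and 1.57 at day 7 (both against sham), with 1.79 at day 7 against day 1. Vim was thus higher at day 7 than on both other arrays. Its fold against sham lay at percentile 96.3 of the folds of measured genes at day 7 and at percentile 29.3 at day 1. Nes, which encodes nestin, a filament partner of vimentin, did not follow it. The brighter Nes probe had log2 folds of -0.66 at day 1 and -1.09 at day 7 against sham, and its second probe had -0.56 and -1.34.

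S100b encodes a calcium-binding protein made and secreted by astrocytes, and also present in oligodendrocyte lineage, Schwann and ependymal cells. Its spots had a median intensity of 325 in sham (9 spots used), 2868 at day 1 and 1272 at day 7. As levels, S100b came to -4.11 in sham, -0.91 at day 1 and -2.21 at day 7, with spot SDs of 0.14, 0.17 and 0.15. The 3 spot ranges were apart from each other, at -4.32 to -3.80, -1.29 to -0.76 and -2.51 to -2.01. The log2 fold was 3.19 ± 0.07 at day 1 and 1.89 ± 0.07 at day 7 (both against sham), with -1.30 ± 0.07 at day 7 against day 1. At day 1 its fold was the highest of the 200 replicated probes that could be compared, and at day 7 it was the 7th of 194. Among all measured genes 14, itself included, had a fold at least as high at day 1. On the same arrays, markers of oligodendrocytes had 1 of 13 genes at least 2-fold lower at day 1, Ermn, and none higher. At day 7 they had 2 of 13 lower, Mbp and Aspa, and none higher. Their summed level came to 5.11 in sham, 4.92 at day 1 and 4.65 at day 7.

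Aqp4 encodes the water channel of astrocyte endfeet at vessels and at the brain surface. Its spots had a median intensity of 1860 in sham (9 spots used), 1769 at day 1 (8 spots used) and 4359 at day 7. The day 7 spots ran from -0.45 to -0.33, above the sham spots at -1.72 to -1.55, while the day 1 spots at -1.69 to -1.54 overlapped those of sham. The log2 fold was 0.05 ± 0.03 at day 1 and 1.25 ± 0.02 at day 7 (both against sham), with 1.20 ± 0.02 at day 7 against day 1. Aqp4 was thus higher at day 7 alone, 2.37-fold over sham. Kcnj10, its neighbour in endfeet, had the opposite order of the days.

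**Figure D2:**
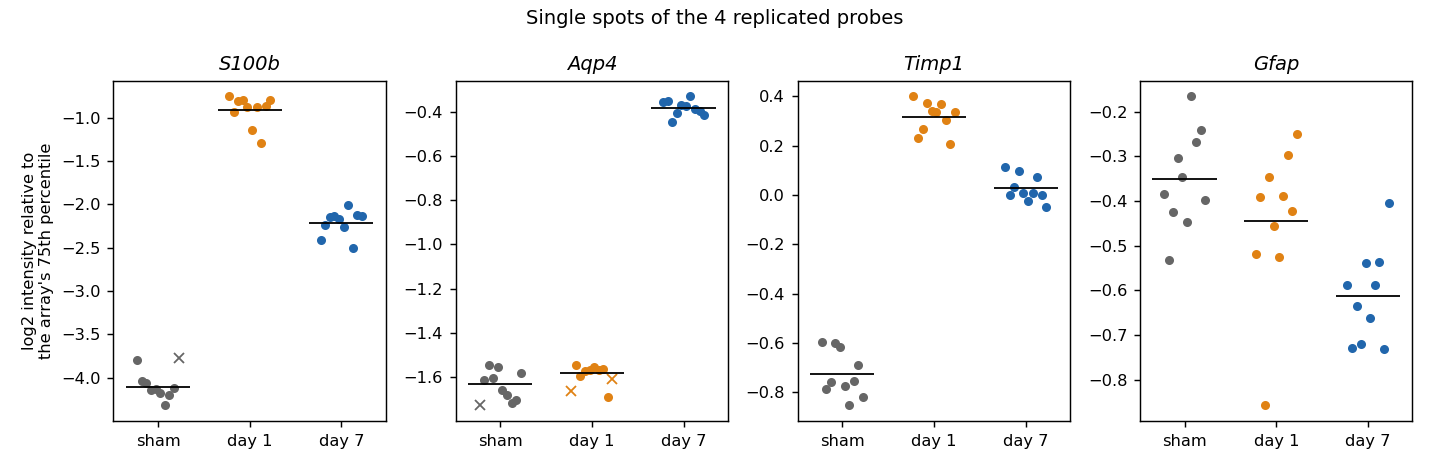
Single spots of the 4 member probes that lie on 10 spots, as log2 intensity relative to the 75th percentile of the array, on the sham, day 1 and day 7 arrays, with a separate vertical scale per gene. Bars are means, and crosses are spots with an outlier flag, which were left out. The 3 spot ranges of S100b and of Timp1 are apart, Aqp4 stands apart at day 7, and those of Gfap overlap.

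Of the cell surface and cytokine-linked members, Steap4 was at least 2-fold higher at both times, Cd44 at day 7 alone, and Osmr was measured in sham and at day 7. Cd44 encodes the hyaluronan receptor, found on reactive and fibrous astrocytes as well as on microglia, immune cells and fibroblasts. The brighter Cd44 probe had an intensity of 3314 in sham, 5227 at day 1 and 12294 at day 7. Its log2 fold was 0.78 at day 1 and 1.90 at day 7 (both against sham), with 1.12 at day 7 against day 1. A second Cd44 probe, with an intensity between 15.5 and 24.9, was not well above background on any array. The brighter probe of Cd44 was thus lowest in sham and highest at day 7.

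Osmr encodes the receptor subunit that binds oncostatin M together with gp130. It was dim, at 79.0 intensity units in sham, 23.9 at day 1 and 289 at day 7. The day 1 spot was not well above background, and sham lay below the lowest such signal of the day 1 array, so no fold is given at day 1 against sham. The log2 fold at day 7 against sham was 1.88, and Osmr was at least 2.45-fold higher at day 7 than at day 1. With values below the lowest well-measured signal of either array raised to that signal, the log2 fold at day 7 against sham was 1.25.

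Steap4 encodes a metalloreductase that cytokines induce in several tissues. Its brighter probe had 90.8 units in sham, 212 at day 1 and 324 at day 7. The log2 fold was 1.35 at day 1 and 1.84 at day 7 against sham. The day 1 value was below the 2-fold threshold with another background correction, at a log2 fold of 0.84, and with the common lowest signal, at 0.96. The second Steap4 probe, at 24.2 in sham, 89.2 at day 1 and 25.2 at day 7, was not well above background on any array.

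Timp1 encodes an inhibitor of matrix metalloproteinases that astrocytes, fibroblasts and vessel cells release after injury. Its spots had a median intensity of 3366 in sham, 6626 at day 1 and 5711 at day 7, with levels of -0.73, 0.32 and 0.03 and spot SDs between 0.05 and 0.09. The 3 spot ranges were apart, with day 1 highest. The log2 fold was 1.04 ± 0.04 at day 1 and 0.75 ± 0.03 at day 7 (both against sham), with -0.29 ± 0.03 at day 7 against day 1. At day 1 Timp1 lay at the 2-fold threshold and was below it, at a log2 fold of 0.92, in the authors' table without scaling between arrays.

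Lcn2 encodes lipocalin 2, an iron-siderophore carrier secreted by reactive astrocytes and by neutrophils. It had 2479 units in sham, 3432 at day 1 and 4127 at day 7, which gave log2 folds of 0.59 and 0.74 against sham. Both lie within 2-fold. Serpina3n encodes a serine protease inhibitor widely used as a marker of reactive astrocytes. Its probe had 32.3 units in sham, 105 at day 1 and 137 at day 7 and was not well above background on any array, so no fold is given.

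**Figure D3:**
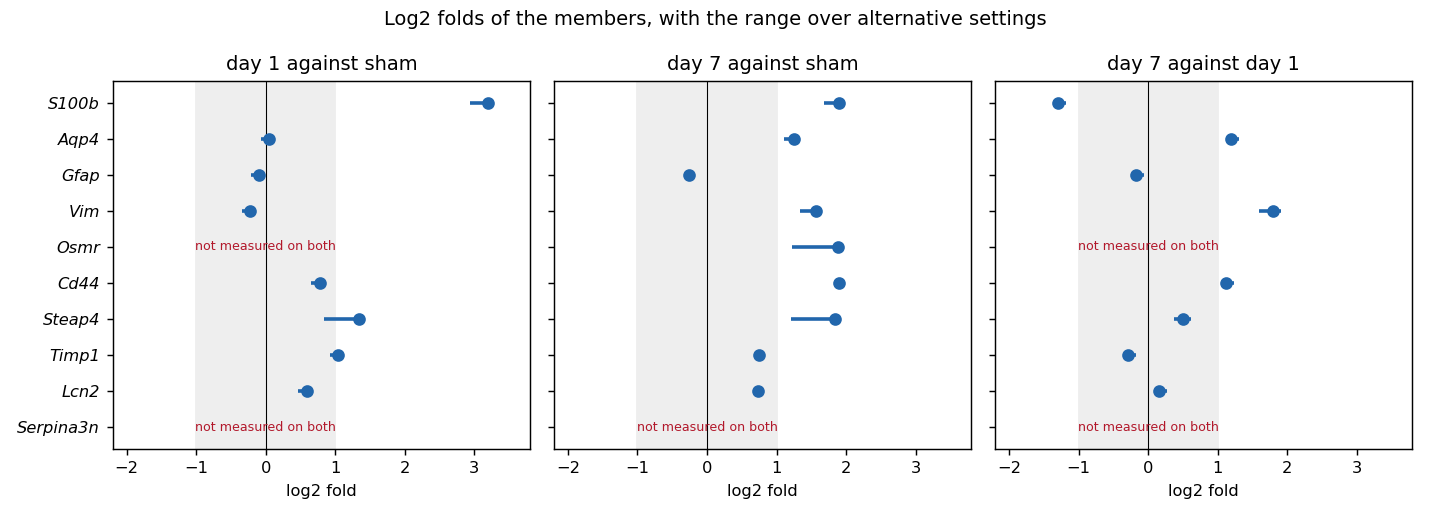
Log2 folds of the 10 members at day 1 against sham, day 7 against sham and day 7 against day 1, in 1 panel each. Points are the values as reported, bars span the alternative settings, and the grey band is within 2-fold; Osmr at day 1 and Serpina3n could not be measured. S100b at 3.19 is farthest from 0, and the folds of 6 members at day 7 lie above the band under each setting that gave a value.

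The counts have to be read against all named genes. The day 1 array had 3 of 8 measured members at least 2-fold above sham and none at least 2-fold below it. Over all 6292 genes measured on both arrays, 8.26% were that much higher and 4.37% that much lower. The median log2 fold of the 8 was 0.68, against 0.00 over all genes. The day 7 array had 6 of 9 measured members at least 2-fold above sham and none at least 2-fold below it, beside 11.1% of 6261 genes above and 5.73% below. The median was 1.57, against 0.05 over all genes. Between the arrays after surgery, Vim, Cd44 and Aqp4 of the 8 measured were at least 2-fold higher at day 7 than at day 1, and S100b was lower, beside 6.56% of 6142 genes higher and 5.32% lower. The median was 0.32, against 0.04 over all genes.

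Dim genes passed 2-fold more often than bright ones. Of genes dimmer than the median gene, 18.6% were at least 2-fold higher at day 7 than in sham, and of the brighter ones 3.67% were. The 4 dimmer members, Vim, Osmr, Steap4 and S100b, were each higher at day 7. Of the 5 brighter members, Cd44 and Aqp4 were higher, and Gfap, Lcn2 and Timp1 were within 2-fold. On the day 1 array, 12.7% of the dimmer genes and 3.85% of the brighter ones were at least 2-fold above sham. There, S100b and Steap4 of the 3 dimmer members and Timp1 of the 5 brighter members were higher. Separate spots were also common. Of 200 replicated probes, 29.0% had their day 1 spots wholly above the sham spots and 23.5% had them wholly below. For day 7 and sham the shares were 38.7% above and 22.7% below, of 194 probes. For day 7 and day 1 they were 29.2% above and 26.6% below, of 192 probes.

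**Figure D4:**
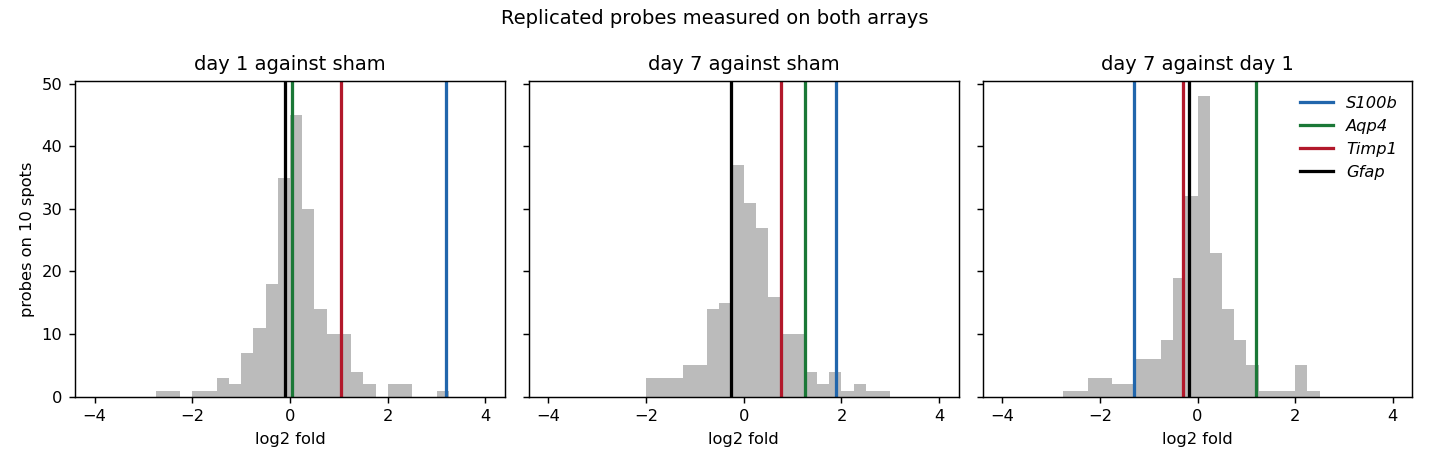
Histograms of the log2 folds of replicated probes measured on both arrays of a comparison (number of probes per bin), with coloured lines at the 4 members on 10 spots. S100b is at 3.19, the highest of 200, at day 1 against sham, and Gfap is near 0 in each panel.

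A wider list of 28 reactive astrocyte genes did not show the counts of the 10 members against sham. Of 17 measured genes, 1 was at least 2-fold higher and 1 lower at day 1, with a median log2 fold of 0.17. At day 7 none of 17 was higher and 1 was lower, with a median of 0.38. Between day 7 and day 1, 3 of 16 were at least 2-fold higher at day 7, C3, Serping1 and Cp, and S100a10 was lower. Of all genes, 6.56% were higher and 5.32% lower. Serping1 had 1.67 there on its brighter probe and 0.06 on the other. C3, the complement component used as a marker of one reactive state, had log2 folds of -2.84 at day 1 and -0.22 at day 7 (both against sham), with 2.63 at day 7 against day 1. Fbln5, an elastic fibre protein, had 1.71 at day 1 and 0.75 at day 7. S100a10, an annexin partner used as a reactive marker, had 0.29 and -0.93. The gene lower at day 7 than in sham was Nes.

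Among 16 genes of the gp130 and STAT3 route, the one Osmr belongs to, none of 9 measured was at least 2-fold different at day 1. Of all genes, 8.26% were higher and 4.37% lower there. At day 7, 3 of 11 were higher, beside 11.1% of all genes and 18.6% of the dimmer ones. The medians were -0.22 at day 1 and 0.36 at day 7, against 0.00 and 0.05 over all genes. The 3 genes higher at day 7 were Osm, Socs3 and the kinase Jak2. Osm, which encodes the ligand oncostatin M, had a log2 fold of 2.28. Socs3, the feedback inhibitor that STAT3 induces, had 1.48, and Jak2 had 1.25. In sham the level of Osm, at -5.95, lay below the lowest well-measured signal of the day 7 array, which limits its fold as it limits that of Osmr. Osm and Socs3 were not well above background at day 1. At day 7 Osm was at least 3.78-fold and Socs3 at least 3.76-fold above that array. Osm, its receptor subunit Osmr and Socs3 were thus each higher at day 7 than on both other arrays.

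The ligand Lif had log2 folds of -0.70 at day 1 and -0.28 at day 7, and the ligand Cntf had -0.26 and 0.15. Il6 and Il11, also ligands, and the receptor subunit Lifr were not well above background on any array. Of the other receptor subunits, Il6st, which is gp130, had 0.00 and 0.36, Il6r had -0.40 and 0.71, and Cntfr had -0.22 and 0.18. Il6r had 1.11 between day 7 and day 1, the 1 gene of 9 past 2-fold in that comparison, beside 6.56% of all genes higher. Stat3 itself differed by probe: the probe on 10 spots had 0.01 and -0.37, and the other had 0.74 and 0.75. Among the regulators, Pias3 had 0.10 and 0.78. The phosphatase gene Ptpn11 had -0.46 and -0.31 on its brighter probe and -1.46 and -0.94 on the other.

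Of 33 genes whose products work with those of the members, such as matrix metalloproteinases, other S100 proteins and CD44 ligands, 3 of 17 measured were at least 2-fold higher at day 1, Kcnj10, Lrp2 and Mmp2, and 1 was lower. Has2, a synthase of the CD44 ligand hyaluronan, was well above background at day 1 alone, at least 6.62-fold over sham, and at least 3.59-fold lower at day 7 than at day 1. At day 7, 2 of 16 were at least 2-fold above sham and 2 below, beside 11.1% and 5.73% of all genes, and the median was -0.12. Spp1 encodes osteopontin, a ligand of CD44, and its probe on 10 spots had log2 folds of -0.08 at day 1 and -1.67 at day 7. Ezr encodes ezrin, which links CD44 to actin and is abundant in fine astrocyte processes and in ciliated and choroid epithelia. It had -0.27 at day 1 and 1.58 at day 7 on its brighter probe, and 0.52 at day 7 on the other. Lrp2, an endocytic receptor that takes up lipocalin 2, had 1.27 and 0.48. Mmp2, a gelatinase that TIMP1 can inhibit, was higher at both times, with 1.27 at day 1 and 1.17 at day 7. The gene lower at day 1 was S100a6, at -1.01, and the genes lower at day 7 were Spp1 and Nes. Mmp14, a membrane-bound protease, had -0.98 at day 1 and 0.72 at day 7.

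Genes with the most similar pattern were sought for Vim, Cd44 and S100b among 3244 genes, by the distance between their log2 folds at both days against sham. The search took genes with a log2 fold of at least 0.5 in size at 1 of the times, so no gene near the folds of Gfap could be found, and none is named for it. Ezr was nearest to Vim, at a distance of 0.05, followed by Pspn at 0.13 and Aurka at 0.14. For Cd44 they were Pde3a at 0.06, Rxra at 0.07 and Bmf at 0.11. S100b had no close neighbour: Inpp5j was at 0.33, Or5aq1d at 0.36 and Or5p5 at 0.63. These distances come from 3 arrays and describe likeness over 2 folds.

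Markers of other cells also differed on the same arrays, and the part of each in the member values was not tested. Ependymal cells also express Vim, S100b and Aqp4. Of 11 markers of ependyma and choroid plexus, 8 had a probe and 2 were well above background on no array. On the day 7 array 4 of 5 measured were at least 2-fold above sham, with a median log2 fold of 1.77, and their summed level came to -0.06 in sham, -0.36 at day 1 and 1.14 at day 7. The 4 were Rsph1 at 2.94, Sostdc1 at 1.86, Foxj1 at 1.77 and Folr1 at 1.72. In sham the level of Rsph1, at -6.32, lay below the lowest well-measured signal of the day 7 array, which limits its fold as it limits that of Osmr. The other measured marker, Ttr, the choroid plexus transthyretin gene, was at -0.10. Kl and Clic6 were the 2 at background on each array. Aqp1, near background in sham, was at least 2.10-fold higher at day 7. At day 1, none of 4 was higher and Ttr was lower at -1.20.

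Fibroblasts of the meninges express Vim, Cd44 and Timp1. Of their 10 listed markers 8 had a probe, and the summed level came to 1.24 in sham, 1.62 at day 1 and 1.96 at day 7. The brightest of them, Igf2, had levels of 0.73, 0.96 and 1.42 in the same order. On the day 1 array 2 of 6 measured were at least 2-fold above sham, Slc22a6 at 1.81 and Col3a1 at 1.11. Others went the other way at day 1: Dcn was at -0.91, Lum at least 1.93-fold lower and Slc47a1 at least 1.40-fold lower than sham. Lum was at least 1.87-fold lower at day 7 as well. At day 7, 1 of 7 was, Aldh1a2 at 1.76, and Col1a2 had 0.96 on its brighter probe and 1.19 on the other. Microglia, which express Cd44 and Osm, had a summed level of 3.36 in sham, 2.85 at day 1 and 3.79 at day 7. At day 1, 1 of 7 microglial genes was at least 2-fold lower, Aif1 at -1.08. At day 7, 2 of 9 were higher, Tyrobp at 1.01 and C1qc at 3.31, although the second C1qc probe had 1.03. Genes near background went both ways. Cx3cr1 was at least 3.78-fold higher at day 1 and at least 3.05-fold higher at day 7 than in sham, and Cd68 was at least 3.19-fold lower at day 1. The day 1 spot of P2ry12 was left out as an outlier, so the summed level holds 10 of the 11 microglial genes with a probe. Of 9 neutrophil markers 4 had a probe and none was well above background on all 3 arrays. Of these S100a8 had a log2 fold of 1.24 at day 7 against sham, and S100a9 was well above background at day 7 alone, at least 5.99-fold over sham.

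Endothelial, neuronal and Schwann cell markers had no 2-fold shift above sham. Of 9 endothelial and pericyte markers none differed by 2-fold at day 1, and none of 8 did at day 7. Their summed level came to 2.91 in sham, 3.21 at day 1 and 3.07 at day 7. None of 10 neuronal markers was 2-fold higher or lower at day 1. At day 7, 3 of 10 were lower, the neurofilament genes Nefh at -2.30, Nefl at -1.61 and Nefm at -1.17. None of the 3 measured Schwann cell markers, which would mark the nerve root, differed by 2-fold from sham at either time.

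**Figure D5:**
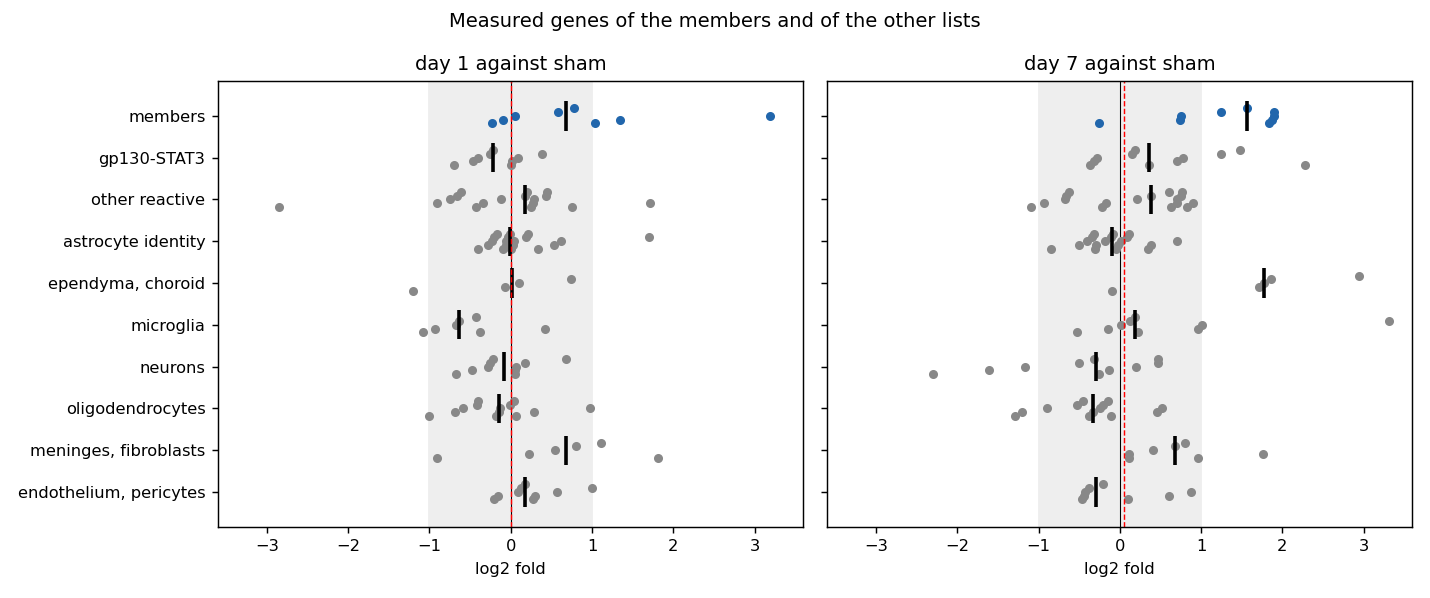
Log2 folds of the measured genes of 10 lists at day 1 and at day 7 against sham, with 1 point per gene, black bars at list medians, a red dashed line at the median of all genes and a grey band within 2-fold. The member median is 1.57 and the ependymal and choroid median is 1.77 at day 7, while that of the astrocyte identity genes is -0.10.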

How the data were processed

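Per the labels, 1 µg of total RNA per group was labelled with Cy3 and hybridised to 1 Agilent rat array. The deposited scanner files hold, per spot, the processed intensity of Agilent Feature Extraction 10.7.3.1, per the file headers a linear value after background subtraction, and per-spot flags for saturation, for outliers and for signal well above background. The authors' series table holds the same intensity for 34687 probes. It equalled the scanner values within 0.1 percent for 99.7% of values, so it is not scaled between arrays, with column medians between 1544 and 1688.

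Control spots and spots with an outlier flag (163 to 224 per array) were left out, each array was set to its 75th percentile on a log2 scale, and replicate spots were averaged per probe. The files used here pair probes with accessions, not gene names. RefSeq's table of GRCr8 named 10768 of 41012 probes, giving 8899 genes. The array annotation uses an older build, so gene coordinates are given for the printed sequences alone. Where a gene had several probes, the one brightest on average stands for it. Saturation left some genes unmeasured, such as Gja1. Where 1 array was not well above background, the bound compares the brighter value with that array's lowest well-measured signal, or with the dim value where this is higher.

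With 1 array per group there was no test; folds were counted at 2-fold, beside all named genes. The number of arrays limits the precision. The genes of the set and the other lists were chosen with earlier results of these data known. Named genes are the members, up to 4 genes per list with the largest fold and the measured gp130 genes. The 3 nearest genes of Vim, Cd44 and S100b are named too, while those found for Gfap lay at the edge of the search and are not named. Il6, Il11, Lifr, S100a6, Ttr, Mmp2, Mmp14, Dcn, Igf2, Kl, Clic6, Cp, Serping1, genes with bounds and second probes were added after their values were seen. The fold calculation was tested on simulated data. Python 3.11.15, pandas 2.3.3, numpy 2.4.6, R 4.3.3 and limma 3.58.1 were used.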

Additional observations from a re-analysis of the deposited data

Results flagged for a closer look

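Vim, the vimentin gene, lay below sham at day 1 with a log2 fold of -0.23 and above sham at day 7 with 1.57. It was singled out because the 2 times differed from sham in opposite directions. Each value comes from 1 spot on 1 array per group, both share the sham array, and the difference was not tested. Ezr had log2 folds of -0.27 at day 1 and 1.58 at day 7 on its brighter probe, close to those of Vim, and 0.52 at day 7 on the other. It was picked as the nearest of 3244 genes, so its closeness comes from the search and adds no support.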

How the results depend on the processing

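No paired analysis was possible because each group has 1 array. The planned normexp correction on mean signals was not run because the files used here have no such column; the median signal took its place, and this and the common lowest signal were chosen after seeing the data. The probe with the next highest mean gave no value, since no member has a second measured probe. At day 1 against sham, members at least 2-fold different were counted again under each setting. With no filter on dim probes the count was 5 of 10 (4 higher, 1 lower), beside 17.9% of all genes. At 1.5-fold it was 5 of 8, beside 30.0%. It was 2 of 8 with median scaling (12.4% of all genes), the authors' table (12.2%), normexp (9.63%) and the common lowest signal (12.2%). With brighter probes alone it was 2 of 6, beside 8.72%. That setting kept a gene if either array in the comparison had it above the median level of well-measured probes. S100b, 1 of the 2, had levels of -4.11 in sham and -0.91 at day 1, so its day 1 level let it in. For S100b the setting thus selects on the rise it counts and cannot check it. The median was 0.56 in the authors' table without scaling, where all genes had -0.12. At day 7 against sham, the median was 1.45 with quantile normalization, 1.41 with cyclic loess, 1.70 with no filter on dim probes, 1.21 with normexp and 1.25 with the common lowest signal. With brighter probes alone, 5 members were measured, the median was 0.75 and the count was 2 (Cd44 and Aqp4), beside 11.5% of all genes. At day 7 against day 1, the median was 0.44 in the authors' table, where all genes had 0.15, and it turned to -0.0082 with brighter probes alone. S100b was let in there too by its day 1 level. Of single members, Steap4 at day 1 was within 2-fold in 2 of 10 alternatives (log2 folds of 0.84 to 1.35) and Timp1 at day 1 in 2 of 11 (0.92 to 1.07). Aqp4 at day 1 changed sign in 3 of 11 (-0.07 to 0.05). Distance from background limits Osmr, Steap4 and Serpina3n. At day 7 against sham the log2 fold of Osmr ranged between 1.22 and 1.88 and that of Steap4 between 1.21 and 1.84. The causes of these shifts were not tested.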
